A study of Mus musculus with 4 samples.

Results

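The genes described here encode the proteins of the mitochondrial ribosome. The set was picked with earlier results of these data known, and its members were found by symbol alone. They were every gene with a probe set of its own whose symbol starts with Mrpl or Mrps followed by a digit. Where a gene had several probe sets the brightest on average was kept. This gave 71 genes of 22180 named on the array, and RefSeq (GRCm38.p6) gives all 71 the same symbol. A further 7 mitochondrial ribosomal symbols appeared only on probe sets shared with another gene and were not used here. The arrays carried RNA labelled as coming from mouse iNKT cells, T lymphocytes with a semi-invariant antigen receptor that see lipids on CD1d. In 1 genotype, CD4-Vα14Tg, the CD4 promoter drives a Vα14 T cell receptor transgene, and the other genotype was the wild-type (WT) control. Each genotype had 2 arrays. Age, sex, strain, organ and sorting gate are not in the labels, and the extraction protocol speaks of frozen tissue, so the purity of the cells is known only from the marker genes below. Nothing in the labels says whether the 2 arrays of a genotype came from separate mice, so the p-values measure only the spread between these samples, which may be technical.

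The mitochondrial ribosome sits inside mitochondria and translates the few messenger RNAs encoded by mitochondrial DNA, all of them for subunits of the respiratory chain and ATP synthase. All of its proteins are encoded in the nucleus, made in the cytosol and imported. Many belong to families shared with bacterial ribosomes, and others exist only in mitochondria. In T cells the demand for mitochondrial translation is known to grow with activation and proliferation, and loss of single subunits causes inherited respiratory chain disease.

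On the arrays, log2 values were compared between genotypes with limma (CD4-Vα14Tg minus WT), and p-values were adjusted for all the genes in the fit by Benjamini-Hochberg. A gene was tested when it reached the 40th percentile of named probe sets, a log2 value of 4.65 to 4.69, on at least 2 of the 4 arrays. Of the 71 genes, 70 were tested and 1 was dim. Among markers of the labelled cell type, Zbtb16, the gene of the iNKT factor PLZF, read between 11.08 and 11.39 on the 4 arrays and the T cell receptor component Cd3g between 12.11 and 12.29. Of 6 such markers tested, 5 had a negative difference and 1 passed, Klrb1c, which encodes NK1.1 (log2 difference -1.45, limma adjusted p = 0.00326), while Cd3e had -0.31 (limma adjusted p = 0.456). Of 26 markers of other cell types, 18 lay below the filter, and all read between 3.03 and 5.63. Of those tested, the myeloid integrin gene Itgam was higher in CD4-Vα14Tg (log2 difference 0.67, limma adjusted p = 0.0438) and the NK receptor gene Ncr1 was lower (log2 difference -0.90, limma adjusted p = 0.0122). Their part in the values below was not tested. In RNA of whole samples, fewer cells of a type and less RNA per cell cannot be told apart.

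None of the 70 mitochondrial ribosomal protein genes passed limma's test. Over all 13602 genes tested, 1.95% passed it, 0.61% higher and 1.34% lower in CD4-Vα14Tg. The lowest limma adjusted p of a member was 0.217. At an unadjusted limma p under 0.05 there were 2 members of 70, or 2.86%, against 11.7% of all genes. The log2 differences of the 70 members lay between -0.38 and 0.23. Their median was -0.043 and their quartiles were -0.12 and 0.012, while all genes had a median of -0.022 and quartiles of -0.13 and 0.088. Among all genes, 9.20% lay farther from 0 than the farthest member. A difference of more than 0.25 was seen in 2 of the 70 members and in 19.4% of all genes. The SD of the differences was 0.12 over members and 0.28 over all genes.

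**Figure D1:**
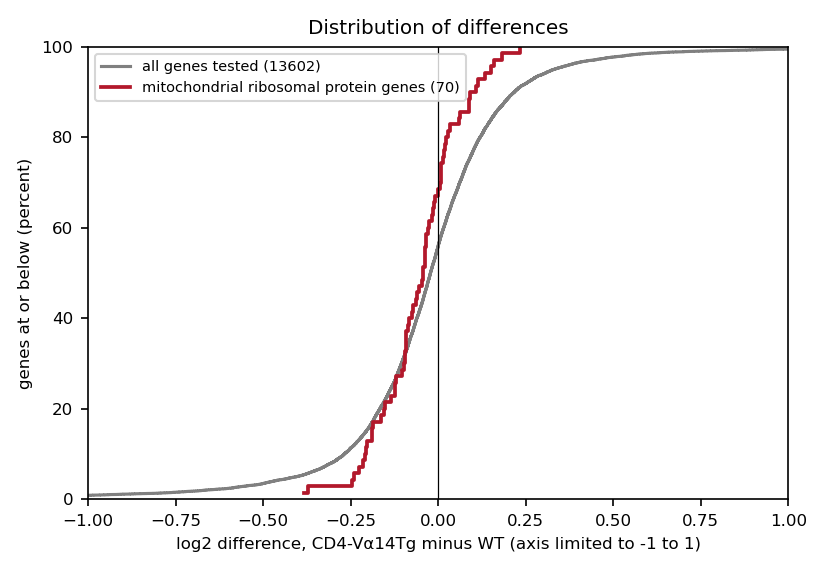
Cumulative share of genes (percent, vertical axis) against the log2 difference CD4-Vα14Tg minus WT (horizontal axis, limited to the range from -1 to 1), for all 13602 genes tested (grey) and 70 mitochondrial ribosomal protein genes (red). The red line runs only from -0.38 to 0.23.

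The spread between replicate arrays was close to that of other genes. The median SD between arrays of a genotype was 0.098 for the members in CD4-Vα14Tg and 0.10 in WT, against 0.10 and 0.098 over all genes tested. The 95% interval of a member's difference had a median half-width of 0.30 on the log2 scale, which corresponds to 1.23-fold. For 65 of the 70 members the whole interval lay within 1.5-fold either way, as it did for 79.0% of all genes. The 5 others were Mrpl16, Mrpl22, Mrpl27, Mrps14 and Mrps26, and Mrpl12 lay just inside with a lower bound of -0.58. The smallest difference called for any gene on the array was 0.64, which is larger than that of every member. RMA, named in the submitters' processing notes without its options, usually includes quantile normalization, and a change in total RNA per cell would not be seen in values scaled in that way.

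**Figure D2:**
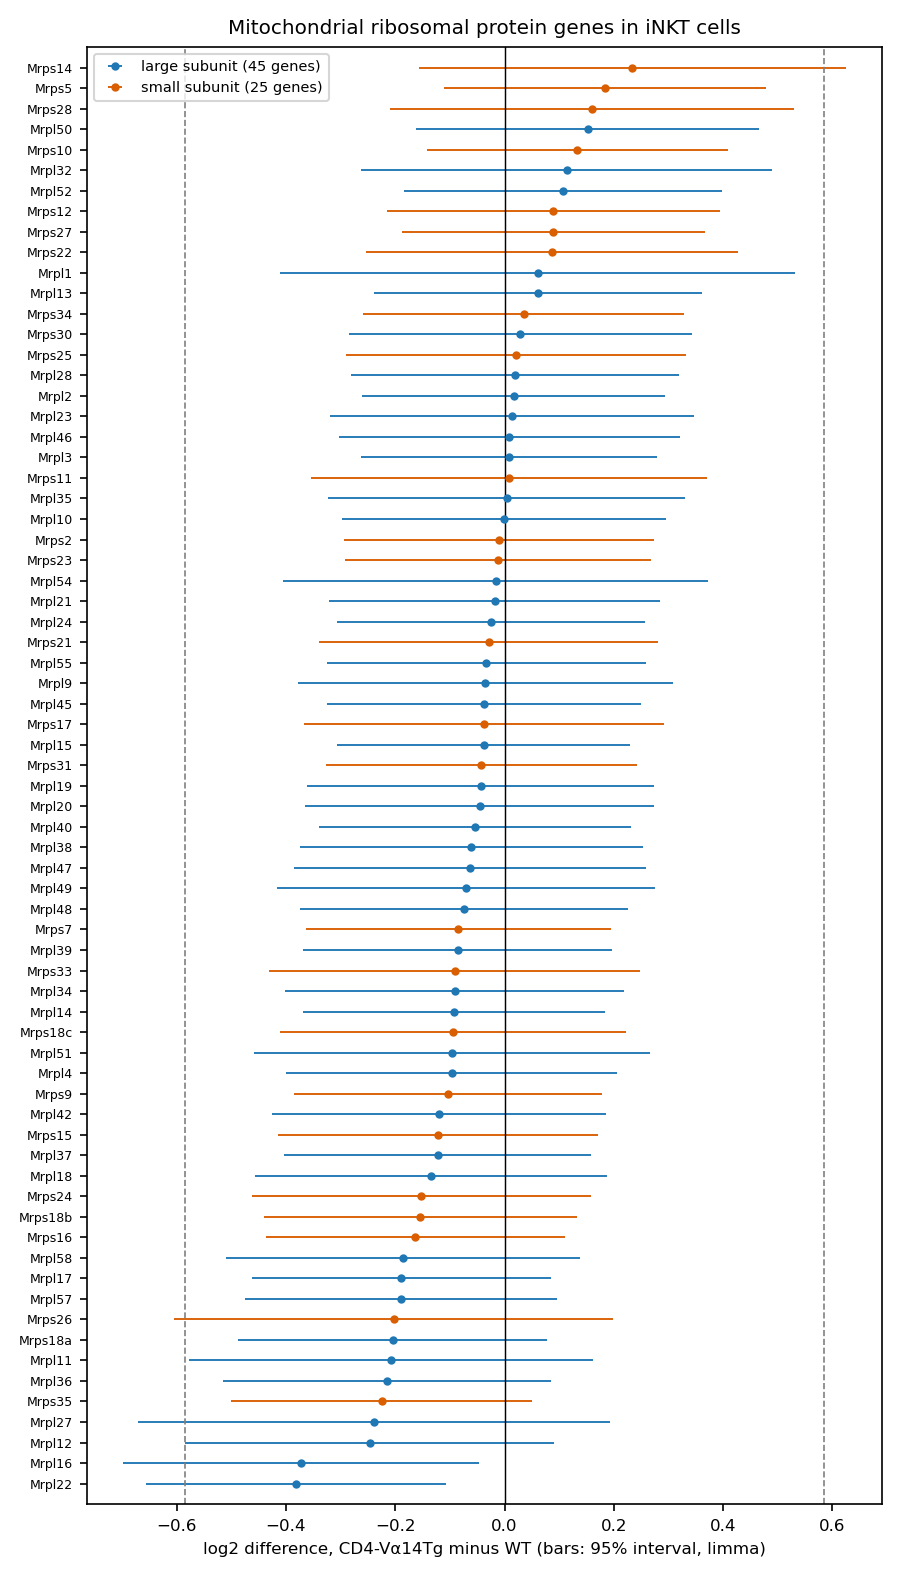
Log2 difference CD4-Vα14Tg minus WT of each of 70 mitochondrial ribosomal protein genes (points) with its 95% interval from limma (bars), ordered by difference and coloured by the subunit that holds the protein. Dashed lines mark 1.5-fold either way, and 65 intervals lie between them.

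The large subunit forms peptide bonds, and the small subunit reads the messenger RNA. Proteins were assigned to the subunit that holds them, so that Mrps18a and Mrps30, named for the small subunit, were counted in the large one. The 45 large-subunit genes had a median difference of -0.054, with 33 negative and 12 positive. The 25 small-subunit genes had a median of -0.029, with 15 negative and 10 positive. The difference between subunits was not tested. Among families shared with bacteria, 27 large-subunit genes had a median of -0.0435 and 15 small-subunit genes had -0.029. Among proteins classed as mitochondria-specific, 18 large-subunit genes had a median of -0.0655 and 10 small-subunit genes had -0.027. Mrps18a and Mrps18b were placed there, although both are related to bacterial S18. No class held a gene past the test.

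The lowest readings relative to WT were in Mrpl22 and Mrpl16. Mrpl22, an exit tunnel protein, read 5.39 and 5.37 on the CD4-Vα14Tg arrays and 5.81 and 5.71 on the WT arrays. Both CD4-Vα14Tg values lay below both WT values, and those of CD4-Vα14Tg were nearly equal. The log2 difference was -0.38 with a 95% interval from -0.66 to -0.11, or 1.30-fold, and it did not pass over all genes (limma adjusted p = 0.217). It stayed between -0.43 and -0.33 when any 1 array was left out. Mrpl16, which lies close to the tRNA binding sites of the large subunit, read 6.61 and 6.73 against 6.91 and 7.18. The groups again did not overlap, though the WT arrays lay farther apart than the CD4-Vα14Tg arrays. Its difference of -0.37 (95% interval -0.70 to -0.047, limma adjusted p = 0.333) ranged from -0.51 to -0.24 without 1 array.

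The next 6 by moderated t were smaller. Mrps35, a mitochondria-specific protein of the small subunit, read 6.95 and 6.93 against 7.11 and 7.22, a difference of -0.225 (95% interval -0.50 to 0.051, limma adjusted p = 0.561). The stalk gene Mrpl12 read 6.56 and 6.31 against 6.79 and 6.58, a difference of -0.25 (95% interval -0.58 to 0.090, limma adjusted p = 0.617). In Mrpl12 the higher CD4-Vα14Tg value came just under the lower WT value. Mrps18a, Mrpl36, Mrpl17 and Mrpl57 differed by -0.205, -0.215, -0.19 and -0.19, none past the test (limma adjusted p between 0.621 and 0.664). In all 8 genes both CD4-Vα14Tg arrays lay below both WT arrays. The 8 were picked by t on these same arrays, which favours that arrangement, and 23.4% of all genes showed it.

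At the other end, Mrps14 and Mrps5 had the largest positive differences. Mrps14, a protein of the small subunit head, read 6.06 and 5.92 against 5.54 and 5.97. The groups overlapped, and WT replicate 1 alone was low. Its difference was 0.23 (95% interval -0.16 to 0.62, limma adjusted p = 0.712), and it was 0.017 without WT replicate 1. Mrps5, which lies at the entrance of the messenger RNA channel, read 8.43 and 8.24 against 8.12 and 8.19, with no overlap. Its difference was 0.18 (95% interval -0.11 to 0.48, limma adjusted p = 0.692). A second, dimmer probe set of Mrps5 had a difference of -0.145, and the mean over both gave 0.019.

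The other 6 most positive members had small differences too. Mrps10, another head protein, read 6.51 and 6.57 against 6.45 and 6.36 and did not overlap, with a difference of 0.13 (95% interval -0.14 to 0.41, limma adjusted p = 0.797). Mrps27, an RNA-binding repeat protein, read 6.20 and 6.10 against 6.04 and 6.09, also without overlap, at 0.089 (limma adjusted p = 0.898). Mrps28, related to bacterial S1, and the mitochondria-specific Mrpl50 had differences of 0.16 and 0.15. Mrpl32, a protein matured by the mitochondrial m-AAA protease, and Mrpl52 had 0.11 and 0.11. The arrays of the groups overlapped in these last 4 genes, or met at the same value in Mrpl50.

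**Figure D3:**
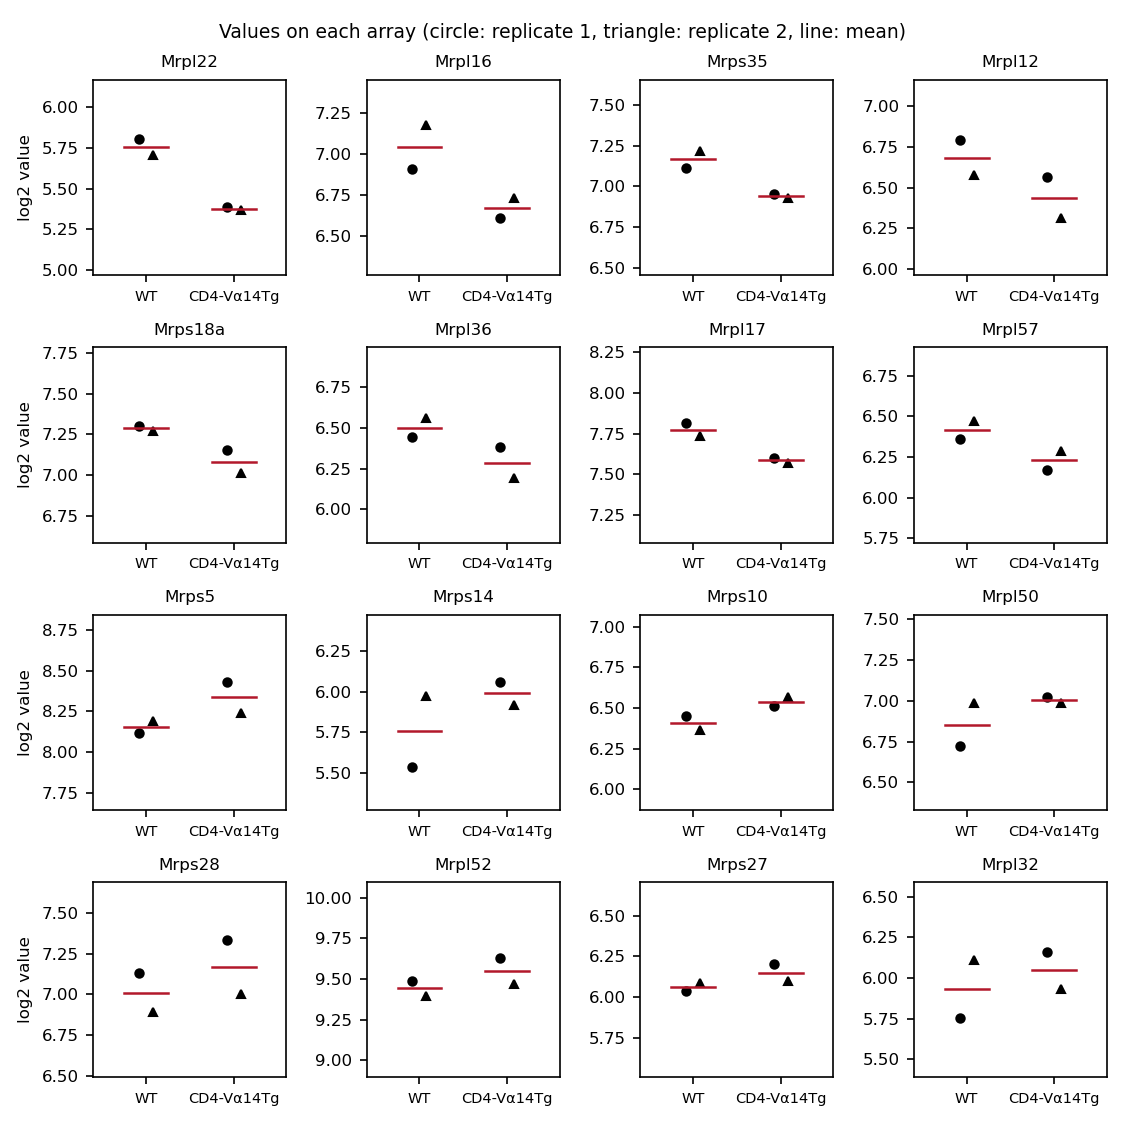
Log2 values on each array (vertical axes, all of the same span) for the 8 members with the most negative (upper 2 rows) and the 8 with the most positive (lower 2 rows) moderated t. Circles are replicate 1, triangles replicate 2 and lines the mean of 2 arrays; Mrpl22 reads 5.39 and 5.37 in CD4-Vα14Tg against 5.81 and 5.71 in WT.

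Over all 70 members, the 2 arrays of CD4-Vα14Tg lay wholly below those of WT in 14 genes and wholly above in 3. Over all genes these arrangements were seen in 23.4% and 15.7%. Together they made up 24.3% of the members, against 39.1% of all genes. The 14 were Mrpl12, Mrpl14, Mrpl15, Mrpl16, Mrpl17, Mrpl22, Mrpl36, Mrpl37, Mrpl57, Mrps9, Mrps16, Mrps18a, Mrps18b and Mrps35, and the 3 were Mrps5, Mrps10 and Mrps27. The difference was negative in 48 of 70 members, or 68.6%, against 56.0% of all genes. With each array centred on the median of the genes tested, the count was 36 of 70, or 51.4%. The 56.0% of all genes was taken before centring and is no measure for this count. Centring moved all genes alike. The median difference became -0.00125 for members and 0.01975 for all genes, from -0.043 and -0.022 before centring. The members thus stayed below all genes by a similar amount. Without WT replicate 2 the count of negative differences was 37 of 70, or 52.9%, and without CD4-Vα14Tg replicate 2 it was 39 of 70, or 55.7%. Without WT replicate 1 it was 47 of 70, or 67.1%, and without CD4-Vα14Tg replicate 1 it was 54 of 70, or 77.1%. The shares of all genes in these runs are not given here.

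CD4-Vα14Tg replicate 2 was the array that stood lowest. Relative to each gene's own mean over 4 arrays, the median member lay at -0.0745 there, against 0.014 in CD4-Vα14Tg replicate 1, 0.0086 in WT replicate 1 and 0.0445 in WT replicate 2. It gave the lowest of the 4 values in 36 of 70 members and the highest in 5. In WT replicate 2 these counts were 7 and 25. Over all genes tested the array medians ran only from -0.016 to 0.025. CD4-Vα14Tg replicate 1 read above replicate 2 in 50 of the 70 members, by a median of 0.10, which is larger than the median difference between the genotypes. Without replicate 2 of CD4-Vα14Tg the median difference of the members was -0.022, without WT replicate 2 it was -0.025, without WT replicate 1 it was -0.071 and without CD4-Vα14Tg replicate 1 it was -0.10. The labels name no batch that could be set beside this.

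**Figure D4:**
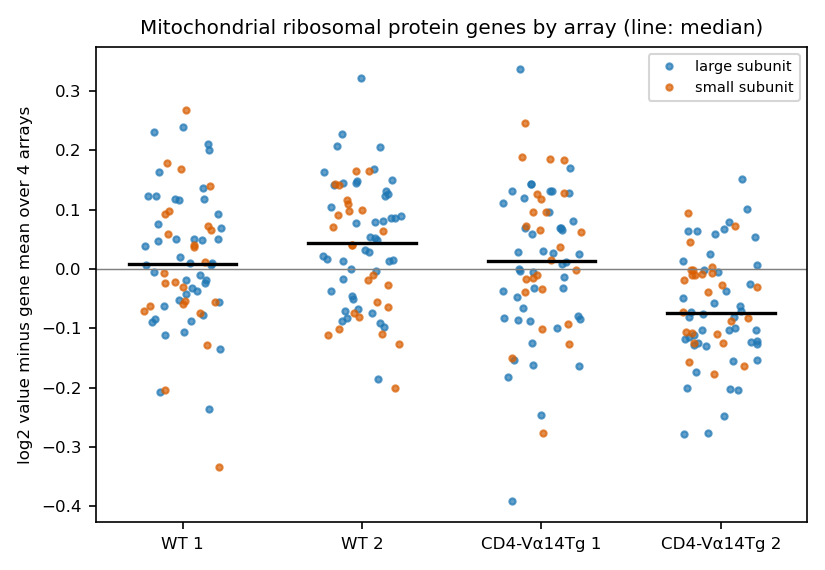
Log2 value of each of 70 members minus the gene's mean over 4 arrays (vertical axis), by array, with large-subunit genes in blue and small-subunit genes in orange. Black lines are medians, at 0.0086, 0.0445, 0.014 and -0.0745 from left to right, and CD4-Vα14Tg replicate 2 lies lowest.

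Neighbouring proteins of the ribosome were followed together. The stalk genes Mrpl10, Mrpl11 and Mrpl12, whose proteins form or anchor the arm that recruits translation factors, had differences of -0.001, -0.21 and -0.25. Mrpl10 read 7.85 and 7.98 against 7.84 and 7.99, so its arrays were nearly matched by replicate number, while Mrpl11 read 6.53 and 6.18 against 6.67 and 6.46 and overlapped. Of 6 genes for the rim of the exit tunnel, 5 had a negative difference, with a median of -0.0615, and Mrpl22 was the lowest. The 5 genes of the central protuberance, the top of the large subunit that faces the small one, ranged from -0.13 in Mrpl18 to 0.009 in Mrpl46. None of these genes passed.

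The 3 genes related to bacterial S18 encode proteins that sit at different places of the mitochondrial ribosome. Mrps18a, found in the large subunit, read 7.15 and 7.01 against 7.30 and 7.27. Mrps18b read 7.75 and 7.85 against 7.89 and 8.02. Mrps18c read 6.05 and 5.93 against 6.21 and 5.96. The first and the second did not overlap and the last did, with differences of -0.205, -0.15 and -0.094 (limma adjusted p = 0.621, 0.759 and 0.913). A second probe set gave -0.034 for Mrps18b and -0.098 for Mrps18c.

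Probe sets of different genes respond differently, so their readings do not rank the genes by abundance. Mean readings of the 70 members ran from 5.15 to 9.49, with a median of 7.20, against 6.68 over all genes tested. Mrpl52, Mrpl24, Mrps15 and Mrpl54 had the highest readings, and Mrpl27, Mrpl51, Mrpl47 and Mrpl22 the lowest. Mrpl24, another tunnel protein, differed little between arrays, at 9.25 and 9.39 against 9.34 and 9.35. Mrpl27, which reaches toward the site of peptide bond formation, had 1 low array, with 4.76 and 5.30 against 5.24 and 5.29, so that its difference of -0.24 became 0.032 without CD4-Vα14Tg replicate 1. The dim gene was Mrps36, at 4.48 and 4.91 against 4.64 and 4.64. Its product has since been assigned to the 2-oxoglutarate dehydrogenase complex and not to the ribosome.

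Of the 71 genes, 9 had 2 probe sets. For Mrpl12, Mrpl36, Mrpl47, Mrps16, Mrps18b and Mrps18c both had a negative difference, and in Mrpl36 the dimmer one was lower, at -0.35 against -0.215. The probe sets differed in sign for 3 genes. These were Mrps5 above, Mrpl10 with -0.001 and 0.10, and Mrps17 with -0.0375 and 0.18.

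Nuclear genes of mitochondrial proteins are textbook targets of NRF1, of ETS factors such as GABPA, and of YY1, so their promoters were searched for the letters these factors recognise. A RefSeq promoter of assembly GRCm38.p6, from 250 bases before to 50 bases after a start site, was available for 62 of the 71 genes, in 68 windows. Mrpl4, Mrpl13, Mrpl15, Mrpl19, Mrpl38, Mrpl54, Mrps28, Mrps34 and Mrps35 had no entry. The motifs were GCGCA and GCGC with any 1 base between them for NRF1, CCGGAAG for ETS factors and AAGATGGC for YY1, on both strands. The ETS and YY1 letters can share their AAG.

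The ETS letters occurred in 23 of 68 windows, or 33.8%, against 8.86% of all 32851 promoter windows in the table. The YY1 letters occurred in 12 windows, or 17.6%, against 2.75%, and the NRF1 letters in 11 windows, or 16.2%, against 4.60%. Mrps18a, Mrps18b and Mrps18c all held the ETS letters. At least 1 of the 3 motifs was found in 38 windows, or 55.9%, against 14.7%. At least 2 were found in 8, or 11.8%, against 1.47%. No window of these genes held all 3, nor did many others (17 of 32851). The windows of these genes were also richer in G and C, with a median of 58.5% against 52.7%, and held a median of 21 CG dinucleotides against 7. The part of base composition in the motif shares was not tested. The table of all promoters includes windows of noncoding genes. Each match is a description of letters and shows no binding.

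**Figure D5:**
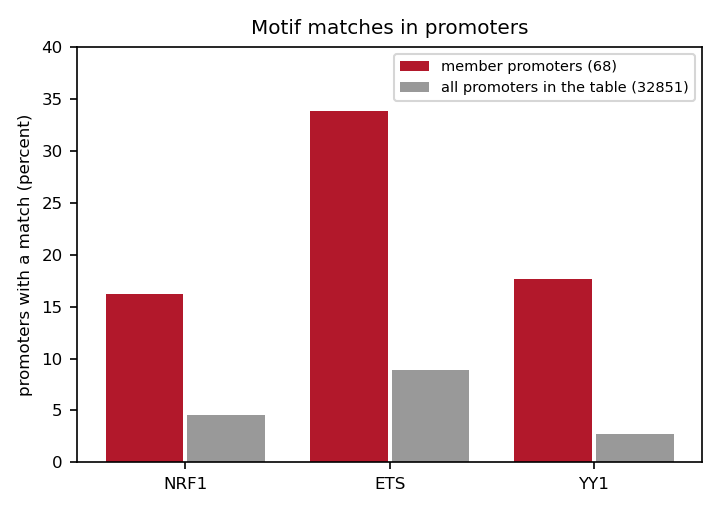
Share of RefSeq promoter windows (percent, vertical axis) that hold the letters of the NRF1, ETS and YY1 motifs, in 68 windows of mitochondrial ribosomal protein genes (red) and in all 32851 windows (grey). The ETS letters were found in 33.8% of the red and 8.86% of the grey windows.

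The 4 promoters below, chosen after the values were seen, show the 3 motifs in genes described above. Capitals mark the motif matches, and sequences run 5′ to 3′ on the strand of the gene. Mrpl22 (chr11:58171414-58171713, plus strand), whose product lines the tunnel through which the new chain leaves, has an ETS match centred at -50 from the start site. Mrpl12 (chr11:120484387-120484686, plus strand), for the stalk protein that recruits translation factors, has an NRF1 match on the opposite strand centred at -76.5. Mrps18a (chr17:46110754-46111053, plus strand) has an ETS match at -23 and a YY1 match at 14.5. Mrps27 (chr13:99344536-99344835, plus strand) has an ETS match on the opposite strand at -45 and a YY1 match at 17.5, so both YY1 matches lie just downstream of the start.
Mrpl22: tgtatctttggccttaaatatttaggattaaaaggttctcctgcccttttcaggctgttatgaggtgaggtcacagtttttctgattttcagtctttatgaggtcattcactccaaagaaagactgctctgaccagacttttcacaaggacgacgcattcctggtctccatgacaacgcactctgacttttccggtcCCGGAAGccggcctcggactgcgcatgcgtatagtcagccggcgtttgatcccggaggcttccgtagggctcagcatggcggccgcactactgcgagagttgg
Mrpl12: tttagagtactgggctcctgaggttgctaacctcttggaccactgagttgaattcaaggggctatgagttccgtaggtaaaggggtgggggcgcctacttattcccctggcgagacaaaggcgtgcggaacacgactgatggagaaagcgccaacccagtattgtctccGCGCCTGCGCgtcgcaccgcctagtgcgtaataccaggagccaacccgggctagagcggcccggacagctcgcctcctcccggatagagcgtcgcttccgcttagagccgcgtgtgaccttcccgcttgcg
Mrps18a: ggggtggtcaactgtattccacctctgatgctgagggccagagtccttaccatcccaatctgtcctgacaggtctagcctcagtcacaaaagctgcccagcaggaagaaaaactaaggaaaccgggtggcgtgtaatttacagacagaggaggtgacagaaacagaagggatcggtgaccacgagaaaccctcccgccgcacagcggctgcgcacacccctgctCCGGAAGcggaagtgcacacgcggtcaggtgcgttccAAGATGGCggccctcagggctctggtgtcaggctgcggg
Mrps27: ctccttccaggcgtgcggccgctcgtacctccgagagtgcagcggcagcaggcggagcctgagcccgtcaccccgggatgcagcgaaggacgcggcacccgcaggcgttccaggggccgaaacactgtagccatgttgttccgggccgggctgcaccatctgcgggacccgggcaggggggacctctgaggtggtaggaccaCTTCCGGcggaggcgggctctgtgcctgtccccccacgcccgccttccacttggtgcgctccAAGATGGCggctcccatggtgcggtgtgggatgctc

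Differences were set beside the promoter motifs. The 23 tested genes with the ETS letters had a median difference of -0.094 and the 38 without it -0.036. The 11 with the NRF1 letters had -0.0925 and the 50 without it -0.040, and the 12 with the YY1 letters had -0.0775 and the 49 without it -0.0425. Each pair of groups spanned overlapping ranges, such as -0.38 to 0.11 with and -0.37 to 0.23 without the ETS letters. The genes are not replicates, and these medians are descriptions only.

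Other parts of mitochondrial gene expression, from lists written with earlier results of these data known, also held few or no genes with a low p. Of 3 ribosomal proteins under other symbols, the GTP-binding Dap3, the large-subunit Gadd45gip1 and the RNA-binding Ptcd3 had differences of 0.17, 0.0565 and -0.0495. Among 25 factors that assemble the ribosome or modify mitochondrial RNA, none passed limma's test, the median was -0.0415 and 1 gene had an unadjusted p under 0.05. That gene was Mtg2, a GTPase of large-subunit assembly, which read 5.98 and 5.96 against 6.22 and 6.46, without overlap (difference -0.37, limma adjusted p = 0.301). The related Mtg1 had -0.26 (limma adjusted p = 0.517) and the methyltransferase gene Nsun3 had -0.18 (limma adjusted p = 0.801).

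Of 14 translation factor genes, 0 passed and 0 had an unadjusted limma p under 0.05, with a median of -0.0535. The elongation factor genes Tufm and Gfm1 pointed opposite ways. Tufm read 8.65 and 8.56 against 8.87 and 8.82, at -0.24 (limma adjusted p = 0.514), and Gfm1 read 7.58 and 7.56 against 7.29 and 7.42, at 0.21 (limma adjusted p = 0.604). Guf1, a back-translocase relative, had -0.14. A list of 21 genes held enzymes that charge mitochondrial tRNAs and, in Gatb, Gatc and Qrsl1, subunits of an enzyme that modifies a charged one. Of these, Fars2, for phenylalanine, read 7.77 and 7.70 against 7.46 and 7.38, at 0.32 (limma adjusted p = 0.331). It was the only one of the 21 at an unadjusted p under 0.05, none passed over all genes, and the median was -0.0605. Wars2 and Rars2 had -0.18 and -0.25.

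Of the genes for factors whose motifs were searched, Nrf1, the ETS factor gene Gabpa and Yy1 had differences of 0.0435, 0.005 and 0.025. Gabpb1 and Gabpb2, in the same list of regulators, had -0.22 and -0.079 (limma adjusted p = 0.760 and 0.924). Of the 12 tested regulators of mitochondrial transcription and biogenesis none passed, with a median of 0.0135 and 0 genes at an unadjusted limma p under 0.05. Myc, the growth regulator known to act on ribosome genes, read 8.22 and 8.66 against 8.69 and 9.07. Its highest CD4-Vα14Tg value lay just under its lowest WT value, at a difference of -0.44 (95% interval -0.89 to 0.0092, limma adjusted p = 0.441). Ppargc1b and Pprc1, for coactivators of mitochondrial biogenesis, had -0.29 and 0.20. Ppargc1a lay below the filter.

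The messenger RNAs that the mitochondrial ribosome translates showed no calls either. Symbols of 10 of them had a probe set of their own, all 10 read near the top of the scale apart from ND6, and 0 passed limma's test or reached an unadjusted p under 0.05. ND6, read from the strand opposite to that of the others, read 11.05 and 10.65 against 11.25 and 11.09, without overlap, at -0.32 (limma adjusted p = 0.527). The other 9 (ND1, ND2, ND3, ND4, ND4L, ND5, COX1, COX3 and CYTB) had differences from -0.064 in ND3 to 0.059 in COX1. Readings so close to the array maxima of 13.7 to 13.8 may compress differences, which was not tested.

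Among 19 cell cycle genes the median difference was 0.33, and 16 of the 19 were positive, against 5986 of all 13602 genes tested. By limma, none of the 19 passed over all genes. An unadjusted limma p under 0.05 was reached by 5 of the 19, against 11.7% of all genes. The mean level of the 19 was 7.71 and 8.05 against 7.39 and 7.70, so replicate 2 read higher than replicate 1 in both genotypes. CD4-Vα14Tg replicate 1 and WT replicate 2 were nearly equal. The part of the replicates in the differences was not tested. Beside the cell cycle genes, the mitochondrial ribosomal genes of the same arrays had a median of -0.043. The kinesin gene Kif11, the topoisomerase gene Top2a and Uhrf1, for a DNA methylation cofactor, had 0.91, 0.72 and 0.385 (limma adjusted p = 0.210, 0.322 and 0.217).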

How the data were processed

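Expression was measured on 4 Affymetrix arrays, 2 per genotype. The values deposited are log2 values, 1 per probe set and array, and were made by the authors with RMA and Affymetrix Power Tools, per the submitters' processing notes. Their versions, their options and the genome build were not given in the sources used here. Groups were read from sample titles. Of 41345 probe sets, 23521 had 1 gene symbol in the platform annotation, 1814 several and 16010 none there, and only the first were used, with the highest-mean probe set per gene.

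Genes at or above the 40th percentile of named probe sets on at least 2 of 4 arrays entered the fit (limma 3.58.1, R 4.3.3; lmFit, eBayes, two-sided, threshold 0.05 after Benjamini-Hochberg adjustment). Each pair of values given against another pair lists replicates 1 and 2 of CD4-Vα14Tg, then of WT. Precision is limited by the number of arrays. Promoters were searched with Python 3.11.15 and pandas 2.3.3. The fit was tested on simulated data.

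The members and lists were chosen with earlier results of these data known. Genes were named by rule: the 8 most negative and 8 most positive members by moderated t, the 4 highest and 4 lowest readings, stalk and S18 genes, members with discordant probe sets, dim members, and up to 3 genes of each other list, with the mitochondrial messenger RNAs and Myc in full. Nrf1, Gabpa and Yy1 were added for their motifs, with Gabpb1 and Gabpb2 beside Gabpa. Alternatives covered the filter, scaling, the limma prior, probe set choice, replicate pairing and leaving out each array. No probe set sequences or scanner files were used here.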

Additional observations from a re-analysis of the deposited data

How the results depend on the processing

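No mitochondrial ribosomal protein gene passed limma's test under any of the 11 alternatives run, and the lowest adjusted p of a member ranged from 0.123 to 0.426. Their median difference ran from -0.10 to -0.022 when 1 array was left out, that of large-subunit genes from -0.12 to -0.0255 and that of small-subunit genes from -0.0615 to 0.0265. Centring each array moved the small-subunit median to 0.013 and the median of all genes to 0.020. Over all genes, 265 calls became 166 to 221 when 1 array was left out, with 169 when CD4-Vα14Tg replicate 1 was missing and 166 when replicate 2 of either genotype was. With the replicate number as a block they became 674, with 0 members among them. Same-numbered arrays share only a number in the labels, and the differences between replicates 1 and 2 of the genotypes correlated at 0.26 over all genes and 0.13 over members. No member call changed with the block.

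Of the 26 members named by the rule, 16 kept their sign under every alternative in which they were tested. Signs turned for the other 10: with quantile normalization Mrpl24, Mrpl54 and Mrpl10 had 0.017, 0.002 and 0.024, with centred arrays 0.017, 0.026 and 0.041, and Mrps17 then had 0.00425. With the mean over probe sets Mrpl10 and Mrps17 had 0.0515 and 0.071. When 1 array was left out, the ranges that crossed 0 were -0.007 to 0.33 for Mrps28, -0.0975 to 0.0475 for Mrpl24, -0.255 to 0.063 for Mrpl51, -0.51 to 0.032 for Mrpl27, -0.079 to 0.077 for Mrpl10, -0.0655 to 0.29 for Mrpl32, -0.21 to 0.18 for Mrpl54, -0.215 to 0.027 for Mrps18c, -0.17 to 0.0995 for Mrps17 and -0.20 to 0.074 for Mrpl47. The cause was not tested.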
